A study of Mus musculus with 2 samples.

Results

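Bidirectional promoters are stretches of DNA from which 2 neighbouring genes are transcribed in opposite directions, their heads facing apart. The intervals studied here were found from gene annotation alone. An interval was kept where the most upstream start of a protein-coding gene on the minus strand lay at most 1000 bp to the left of that of a protein-coding gene on the plus strand, on a mouse autosome. In GENCODE M21 on mm10 (GRCm38) this gave 734 pairs over 732 distinct intervals and 1448 genes, or 6.96% of the 20807 autosomal protein-coding genes. The starts of a pair lay between 1 and 987 bp apart, with a median of 128 bp, and 506 of the 734 pairs had starts at most 200 bp apart. Peaks that touched these intervals numbered 722 of 129010 autosomal peaks in replicate 1 (0.560%) and 735 of 67901 in replicate 2 (1.08%).

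The peaks came from DNase-seq, an assay in which the nuclease DNase I is applied to isolated nuclei and its cuts are sequenced, so that open chromatin stands out. The libraries were made from thymus tissue of 10-day-old female B6CASTF1/J mice, F1 hybrids of a C57BL/6J and a CAST/EiJ parent. Biological replicates 1 and 2 came from separately numbered females with the same donor identifier, and they formed 1 group without a treated, mutant or control group. Replicate 1 held 132737 peaks and 375374 footprints, and replicate 2 held 69798 peaks and 210014 footprints. Read depth is not given in the sources used here, so shares carry no counting interval. The numbers of peaks and footprints do not measure depth directly. Within 500 bp of a transcription start, 8 of 8 thymocyte markers, among them Cd3e, Rag1 and Bcl11b, had a peak in both replicates. The thymic epithelium had 2 of 4 markers with a peak in both, namely Aire and Ccl25, without one at Foxn1 or Psmb11. None of the 3 B-cell markers and none of the 3 hepatocyte markers had one. The share of all genes with a peak at that distance is not given here. Over a narrower window, the start and 128 bp upstream, 44.7% and 41.0% of the single genes described below had a peak in replicates 1 and 2. In bulk tissue, fewer cells with an open site and less access per cell cannot be told apart.

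Genes arranged head to head are frequent in mammals, and many serve processes that every dividing cell uses, such as DNA repair, protein folding and mitochondrial translation. Their shared promoters are typically rich in CpG, lack a TATA box and carry sites for widely expressed factors such as ETS proteins, NRF1, NF-Y and YY1. Nucleosomes are usually displaced from an active promoter, which leaves it open to DNase I. The thymus is the organ in which T cells develop. Thymocytes divide fast at some stages and rearrange their receptor genes at others, and the rearrangement depends on DNA repair.

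The sequences below are the DNA between the starts of 7 pairs, from the RefSeq GRCm38.p6 genome on its plus strand, 5′ to 3′, each from the start of the minus-strand gene, named first, to that of the plus-strand gene. Capitals mark matches, on either strand, to the 12 consensus sequences searched for below. The first 3 are among the 10 pairs with the highest peaks, the next is a pair known from textbooks, and the last 3 had no peak in either replicate.
Hjurp and Trpm8, chr1:88277633-88277661: aggggagggacgagagggagggtccgccg
Dnajb4 and Fubp1, chr3:152210302-152210422: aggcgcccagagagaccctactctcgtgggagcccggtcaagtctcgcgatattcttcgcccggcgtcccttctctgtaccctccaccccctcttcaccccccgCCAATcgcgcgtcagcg
Dcaf6 and Mpc2, chr1:165460475-165460637: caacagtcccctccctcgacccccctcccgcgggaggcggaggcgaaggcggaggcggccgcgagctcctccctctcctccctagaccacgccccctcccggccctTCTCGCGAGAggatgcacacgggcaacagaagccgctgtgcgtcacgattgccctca
Mrps12 and Sars2, chr7:28741820-28741992: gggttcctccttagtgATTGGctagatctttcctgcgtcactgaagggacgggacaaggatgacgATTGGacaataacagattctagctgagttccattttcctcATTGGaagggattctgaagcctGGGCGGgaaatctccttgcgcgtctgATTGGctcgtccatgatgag
Col4a4 and Col4a3, chr1:82586849-82586921: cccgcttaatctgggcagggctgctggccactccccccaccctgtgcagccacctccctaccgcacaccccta
Il11 and Tmem190, chr7:4782859-4782937: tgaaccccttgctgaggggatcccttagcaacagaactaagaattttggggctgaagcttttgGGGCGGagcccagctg
Best1 and Rab3il1, chr19:10001633-10001669: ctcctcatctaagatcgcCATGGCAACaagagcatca

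The interval of Hjurp and Trpm8 is short enough to be covered whole by a single peak, and it held no match to the 12 consensus sequences. That of Dnajb4 and Fubp1 has CCAAT, the NF-Y box, near the start of Fubp1, and a footprint touched it in both replicates. The interval of Dcaf6 and Mpc2 holds TCTCGCGAG, the palindromic element bound by ZBTB33, which also matches on the other strand 1 base further on and was touched by footprints in both replicates. The interval of Mrps12 and Sars2 has 4 CCAAT boxes, all on the minus strand, and none was touched by a footprint in either replicate, while its GGGCGG box was touched in both. The closed intervals differ among themselves. That of Col4a4 and Col4a3 has a GC content of 68.5% but 2 CpG dinucleotides in 73 bases, and that of Il11 and Tmem190 has 1 in 79.

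Nearly all bidirectional intervals were open. At least 1 bp of a peak touched 675 of 734 intervals in replicate 1 (92.0%) and 669 in replicate 2 (91.1%), a mean of 91.6 ± 0.578% (SD, n = 2). Among the promoters of 18126 single genes, which have no other protein-coding start within 1000 bp and were measured over the start and the 128 bp upstream of it, the share was 44.7% in replicate 1 and 41.0% in replicate 2. The gap between bidirectional intervals and single genes was 47.2 and 50.1 percentage points in replicates 1 and 2, or 48.7 ± 2.06 (SD, n = 2), which is many times the spread between the animals. The measures are unlike, since an interval could be open through a peak at either of 2 starts, while a single-gene window holds 1. The single genes also included 1118 olfactory receptors, of which 9 were open in replicate 1 and 1 in replicate 2. No test was run, since the series has 1 group and promoters are not replicates. In both replicates 660 pairs had a peak, in neither 50, in replicate 1 alone 15 and in replicate 2 alone 9.

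The open state of bidirectional intervals was also shared between the replicates more often than that of single genes. Of the intervals open in replicate 1, 2.22% had no peak in replicate 2, against 12.9% of single-gene promoters. Of those open in replicate 2, 1.35% had none in replicate 1, against 5.00% of single-gene promoters. Classes described below lay between, at 5.53% and 2.08% for coding pairs that overlap at their 5′ ends. Single genes with a divergent non-coding gene stood at 5.36% and 4.38%. Replicate 2 has fewer peaks, and how far peak number and low peaks go with these losses was not tested. Most of the 24 intervals that were open in 1 replicate had a peak of the other replicate close by, within 100 bp for 11 of them and within 500 bp for 21. Phtf2 and Tmem60, for example, had a peak of height 14.4 in replicate 2, while the nearest peak of replicate 1 lay 30 bp outside the interval at a height of 8.93. Nup98, which encodes a nuclear pore protein, and its neighbour Pgap2 had a peak of height 8.12 in replicate 1, and the nearest peak of replicate 2 lay 173 bp outside at a height of 12.6.

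The peaks at bidirectional intervals were also higher. Height is the authors' signal value of a peak, here that of the highest peak touching an interval. Its median over open bidirectional intervals was 7.23 in replicate 1 and 6.67 in replicate 2, against 4.20 and 3.93 at open single-gene promoters, a ratio of 1.72 in replicate 1 and 1.70 in replicate 2 (1.71 ± 0.0195, SD, n = 2). As a ratio, the lower quartile differed more than the upper one. It was 4.86 and 3.98 at bidirectional intervals and 1.53 and 1.63 at single genes, while the upper quartile was 9.92 and 10.1 at bidirectional intervals and 7.30 and 7.29 at single genes. The higher median of bidirectional intervals thus went with a scarcity of low peaks. Relative to the median of all peaks of a library, the bidirectional median was 11.6-fold higher in replicate 1 and 8.05-fold higher in replicate 2, and that of single genes 6.71-fold and 4.75-fold. Among the highest 1% of autosomal peaks, 10.7% in replicate 1 and 11.0% in replicate 2 touched a bidirectional interval, while 0.0279% and 0.0884% of the lowest 50% of peaks did. Single-gene promoters were likewise touched by 58.0% and 57.7% of the highest 1%, and by 1.59% and 2.96% of the lowest 50%.

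**Figure D1:**
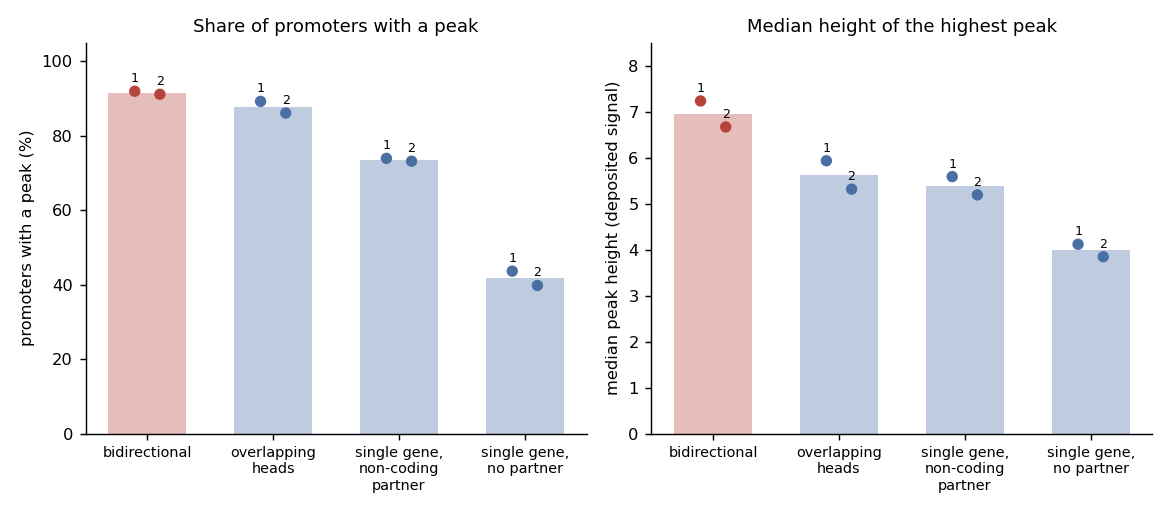
Share of promoters with a peak (left, in percent) and median height of the highest peak at open promoters (right, deposited signal) in 4 classes of autosomal promoters; bars are means of the 2 replicates and numbered points the replicates themselves. Bidirectional intervals stand at 92.0 and 91.1% with a median height of 7.23 and 6.67, above single genes with a non-coding partner (73.9 and 73.2%) and those without one (43.6 and 39.8%).

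Single genes were not of 1 kind. Of the 18126, 656 had a non-coding gene that started divergently within 1000 bp upstream, and these were open in 73.9% and 73.2% of cases with a median height of 5.59 and 5.19 in replicates 1 and 2. The other 17470 were open in 43.6% and 39.8%, with a median height of 4.12 and 3.85. Bidirectional intervals were open more often than the promoters with a non-coding partner by 18.0 percentage points in each replicate, and their median height was 1.29 times as high in replicate 1 and 1.28 times in replicate 2. A further 446 pairs of protein-coding genes on opposite strands overlapped at their 5′ ends, so that the starts faced each other. These were open in 89.2% and 86.1%, close to the share of bidirectional intervals, with a median height of 5.93 and 5.32.

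The heights of the 660 bidirectional intervals open in both replicates followed each other between the animals. Pearson's r of log2 height was 0.929 and Spearman's rank correlation 0.915 over these intervals, which share the libraries and are not independent replicates. Over 7061 single-gene promoters open in both, they were 0.952 and 0.954. The median absolute difference between the replicates was 0.245 on the log2 scale for bidirectional intervals and 0.277 for these single-gene promoters.

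**Figure D2:**
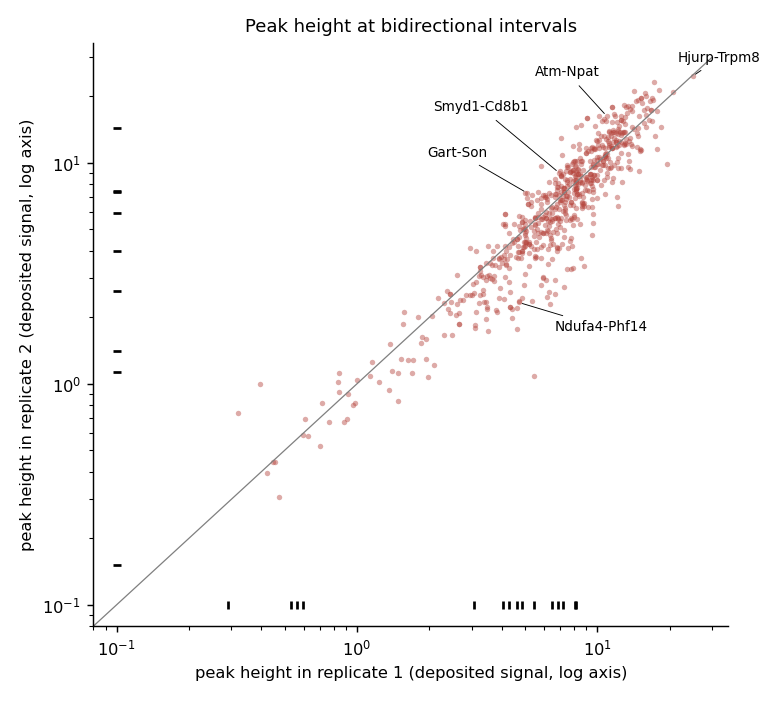
Peak height in replicate 1 (horizontal) and replicate 2 (vertical) at each bidirectional interval, both in deposited signal on log axes, with the line of equal height in grey; black ticks along the axes are the 15 and 9 intervals with a peak in 1 replicate only. Hjurp and Trpm8 lie at the top with 24.9 and 24.7, the middle 50% of open intervals lie between 4.86 and 9.92 in replicate 1 and 3.98 and 10.1 in replicate 2, and Ndufa4 and Phf14 fall below the line.

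The interval of Hjurp, which loads the centromeric histone CENP-A, and Trpm8, a cold-sensing ion channel of sensory neurons, had a height of 24.9 in replicate 1 and 24.7 in replicate 2, or 34.8 ± 7.11 times the library median (SD, n = 2). The starts lie 28 bp apart on chromosome 1, and the peak ran from 88277541 to 88277760 in replicate 1 and from 88277521 to 88277740 in replicate 2. Both replicates thus had a single peak of about the usual width across both starts.

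Dnajb4, an HSP40 co-chaperone, and Fubp1, a regulator of Myc that binds single-stranded DNA, followed with 20.8 and 20.9. Tecr, an enzyme of very long chain fatty acid elongation, and Dnajb1, another HSP40 co-chaperone, had 15.9 and 20.8. Pdcd10, a vascular signalling scaffold, and Serpini1, which encodes neuroserpin, had 16.9 and 19.6. Dcaf6 and Mpc2, which encodes a subunit of the mitochondrial pyruvate carrier, had 16.6 and 19.1. Among the others of the highest 10 pairs, Aamp and Pnkd had 17.2 and 23.3, Fbh1 and Ankrd16 17.0 and 19.2, Rnf5 and Agpat1 15.9 and 20.2, and Mphosph9 and 2810006K23Rik 15.2 and 19.7 in replicates 1 and 2.

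Of 27 head-to-head pairs listed from textbook knowledge, 10 met the rule on mm10, and 9 of the 10 were open in both replicates. Of all bidirectional pairs, 89.9% were. Atm, the kinase that signals DNA double-strand breaks, and Npat, an activator of histone genes, shared an interval at chr9:53536740-53537047 with a height of 11.0 and 16.3. Mcm4, a subunit of the replicative helicase, and Prkdc, the DNA-PK catalytic subunit needed to join V(D)J ends, had 12.0 and 12.8. Both of these pairs lay above the bidirectional medians of 7.23 and 6.67.

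Mrps12, a mitochondrial ribosomal protein, and Sars2, the mitochondrial seryl-tRNA synthetase, had 8.18 and 8.37. Psmb1, a proteasome subunit, and Tbp, the TATA-binding protein, had 8.15 and 8.93. Wrap53, a telomerase assembly factor, and the tumour suppressor Trp53 had 6.49 and 5.93, which is slightly below the bidirectional median in each replicate. Gart, an enzyme of purine synthesis, and Son, a splicing cofactor, had 5.10 and 7.31. Ndufa4 and Phf14 had 4.71 and 2.33, the lowest of the 9 in each replicate. The pair without a peak was Col4a4 and Col4a3, collagen IV chains of specialised basement membranes.

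Several lists of cell maintenance genes had a larger share of their genes in bidirectional pairs than all genes did. The share of a list's autosomal genes that stood in a bidirectional pair was 29.0% for DNA replication and repair (38 of 131), 28.6% for chaperones and chaperonins (12 of 42), 24.2% for respiratory chain subunits (22 of 91) and 23.1% for mitochondrial ribosomal proteins (18 of 78), against 6.96% of all genes. It was 14.3% for proteasome subunits (7 of 49), 14.7% for aminoacyl-tRNA synthetases (5 of 34) and 10.1% for cytosolic ribosomal proteins (8 of 79). Of 35 T-cell receptor signalling genes 1 stood in a pair, of 33 T-lineage transcription factors and recombination genes 0, of 1128 olfactory receptors 0, and of 42 collagens 2. Lists of 33 and 35 genes are too small to set these counts apart from 6.96%. These shares are a property of the annotation, and no enrichment test was run.

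Of the 39 pairs with a DNA replication or repair gene, 37 were open in replicate 1 and 38 in replicate 2. The open counts of this and the following lists stand beside shares of 92.0% and 91.1% over all pairs. No list was tested against these shares. The median height relative to the library median was 11.9 and 8.36 for these pairs, close to the 11.6 and 8.05 of all bidirectional intervals. The highest were Atm and Npat, followed by Lig4, the ligase of non-homologous end joining, with Abhd13 (12.4 and 13.7) and by Xrcc3, a gene of homologous recombination, with Zfyve21 (10.7 and 15.7). Xrcc1, a scaffold of single-strand break repair, shares an interval with Pinlyp that had no peak, and the nearest peaks lay 712 and 30 bp away in replicates 1 and 2.

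All 11 pairs with a chaperone gene were open in both replicates, as were 89.9% of all pairs. The median of the chaperone pairs was 13.6 and 11.1 times the library median. The list does not hold Dnajb4. Besides Tecr and Dnajb1, its highest pairs were Bag1, an HSP70 cofactor, with Chmp5 (15.0 and 11.6) and Cct5, a subunit of the cytosolic chaperonin, with Fam173b (13.4 and 11.0). Of the 22 pairs with a respiratory chain gene, 20 were open in each replicate. Wdr4 and Ndufv3 of complex I had 14.0 and 17.2. The closed ones were Ndufa5 with Asb15, and Uqcrq, of complex III, with Gdf9, an oocyte growth factor. At Uqcrq the nearest peak lay 18 bp outside the interval in both replicates, and footprints touched its 300 bp window 7 and 8 times.

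Of the 18 pairs with a mitochondrial ribosomal protein gene, 18 were open in replicate 1 and 17 in replicate 2, led by Klc4 with Mrpl2 (15.9 and 14.5) and Mrpl49 with Fau (11.4 and 13.3). Of the 8 with a cytosolic ribosomal protein gene, 6 were open in each replicate. All 7 pairs with a proteasome gene were open in both, as were 89.9% of all pairs. The median of these 7 was 5.71 and 4.80 times the library median, which is below the value of all bidirectional intervals. Of the 23 pairs with a zinc finger gene, 18 were open in each replicate. The closed one with the shortest interval, Zfp944 with Zfp758, had a peak 48 bp away in both replicates.

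Histone genes were the list with the largest share in pairs, 27 of 67 (40.3%), and 13 of their 14 pairs joined a pair of replication-dependent histone genes. Of the 14 pairs, 11 were open in both replicates and 3 in neither, against 89.9% and 6.81% of all pairs. The open ones had a median of 13.7 times the library median in replicate 1 and 4.47 in replicate 2, so that they lay above the bidirectional median in replicate 1 and below it in replicate 2. Hist1h2ag and Hist1h2bj had heights of 9.58 and 5.35, and Hist2h2ac and Hist2h2be 9.53 and 6.31. The median of all bidirectional intervals was 11.6 and 8.05 times the library median in the same libraries.

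Hist1h2bq with Hist1h2ao and Hist1h2ap with Hist1h2br had no peak, and their 300 bp windows each matched another place on the autosomes at 95% identity or more over at least 80% of the window. Reads of near-identical copies can be split or left unplaced, so these values are uncertain. In all, 6 of the 734 pairs had such a copy, among them the closed Zfp942 with Zfp943 and Zfp944 with Zfp758, and the open Mfsd8 with Abhd18 and 2700097O09Rik with Srp54a. The third closed histone pair, Hist1h2ba with Hist1h2aa, was not among them, and its nearest peak lay 8479 bp away in replicate 1 and 16589 bp in replicate 2.

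Cd8b1, which encodes the beta chain of the CD8 co-receptor, was the one T-cell receptor signalling gene in a pair. Its start lies 555 bp from that of Smyd1, a methyltransferase of heart and skeletal muscle, at chr6:71322233-71322788. The highest peak had a height of 6.94 in replicate 1 and 9.01 in replicate 2. It lay between 71322501 and 71322740 in replicate 1, short of the Cd8b1 start, and between 71322661 and 71322860 in replicate 2, across that start. A second, lower peak of height 1.64 covered the Smyd1 start in replicate 1, and replicate 2 had no peak there. The 300 bp window at its centre had a CpG observed over expected ratio of 0.197, which put the pair among the 18 bidirectional intervals poorest in CpG. Of these 18, 5 were open in both replicates. The other 4, named after their values were seen, were Abca17 with Abca3 (9.37 and 8.90), Pecam1 with Milr1 (4.44 and 1.99), Obsl1 with Inha (0.712 and 0.823) and Sirt6 with Ankrd24 (0.319 and 0.736).

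CpG content moved with openness in both classes of promoter. The CpG observed over expected ratio compares the CpG count of a window with that expected from its C and G, and its median over 300 bp windows was 0.851 at bidirectional intervals and 0.496 at single genes. When all these windows were split into 4 bins of about equal size at ratios of 0.201, 0.521 and 0.817, 57.8% of bidirectional intervals fell in the bin richest in CpG. In that bin, 96.5% of bidirectional intervals were open in each replicate, against 84.5% and 81.6% of single genes. The median height there was 7.31 and 6.98 at bidirectional intervals and 5.42 and 5.14 at single genes, a ratio of 1.35 in replicate 1 and 1.36 in replicate 2. This is smaller than the 1.72 and 1.70 over all promoters, while in the poorer bins the ratio was about equal or larger. Bidirectional intervals were open more often in all 4 bins and both replicates.

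In the bin of ratios between 0.521 and 0.817, 92.5% and 90.4% of 239 bidirectional intervals were open, against 69.0% and 64.7% of single genes, and the height ratio was 1.71 and 1.72. In the bin between 0.201 and 0.521, 75.5% and 73.6% of 53 bidirectional intervals were open, against 23.8% and 18.9%, with a ratio of 3.97 and 2.87. In the poorest, 27.8% of 18 bidirectional intervals were open in each replicate, against 6.07% and 3.32% of single genes. The 5 open intervals there had a median height 5.21 times that of single genes in replicate 1 and 2.12 times in replicate 2. That last ratio rests on few intervals. The poorer bins also compare unlike windows. At starts 501 to 1000 bp apart, the 300 bp window at the middle reaches neither start, while single-gene windows hold the start. The median CpG ratio of these wide pairs was 0.514, against 0.851 over all pairs. Openness was taken over the whole interval at pairs, but over a fixed stretch at single genes.

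**Figure D3:**
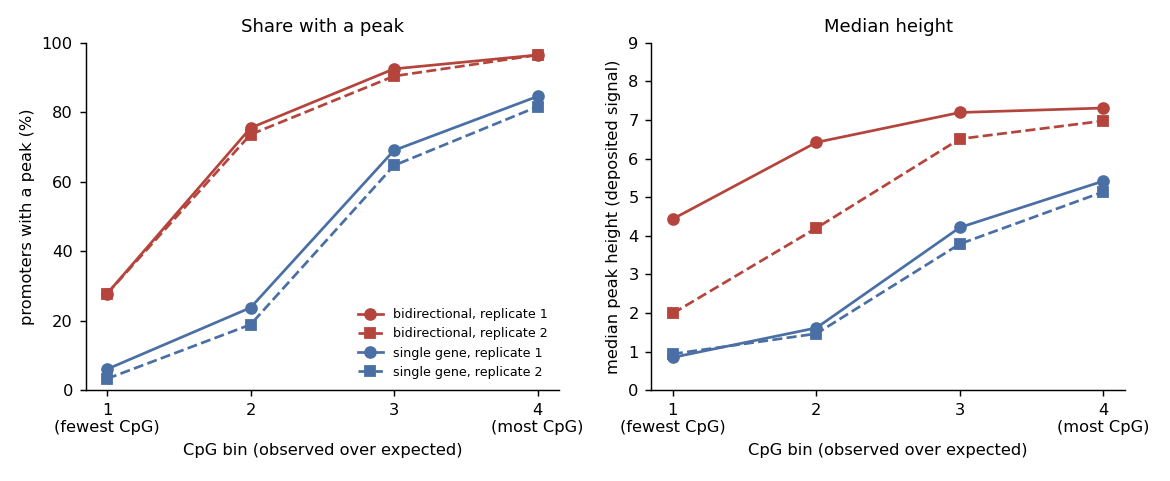
Share of promoters with a peak (left, in percent) and median height at open promoters (right, deposited signal) by bin of CpG observed over expected in 300 bp windows, from poorest to richest, for bidirectional intervals (red) and single genes (blue) in replicate 1 (solid, circles) and replicate 2 (dashed, squares). The red lines lie above the blue ones in all 4 bins, and the gap in openness is smallest in the bin richest in CpG, 11.9 and 14.9 percentage points, where bidirectional intervals are at 96.5%.

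How the accessible region lay over a pair went with the distance between the starts. Overlapping or abutting peaks were joined into regions, and 93.2% of open intervals in replicate 1 and 89.5% in replicate 2 were touched by a single region (91.4 ± 2.58%, SD, n = 2). The highest region at an interval had a median width of 240 bp in both replicates, as at single genes. It covered both starts of 446 of 675 open intervals in replicate 1 (66.1%) and 414 of 669 in replicate 2 (61.9%), 1 start of 203 and 229, and neither start of 26 in each replicate. With starts 1 to 50 bp apart it covered both in 98.3% of cases in each replicate. With 101 to 200 bp between them the share was 69.8% and 64.0%, with 201 to 300 bp 36.7% and 30.0%, and with 501 to 1000 bp 1.67% and 0%. The median width was 220 to 280 bp in every distance class. A region of such width nearly always spans starts that lie close, and cannot span starts 501 bp or more apart. The fall with distance is therefore largely set by the width.

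**Figure D4:**
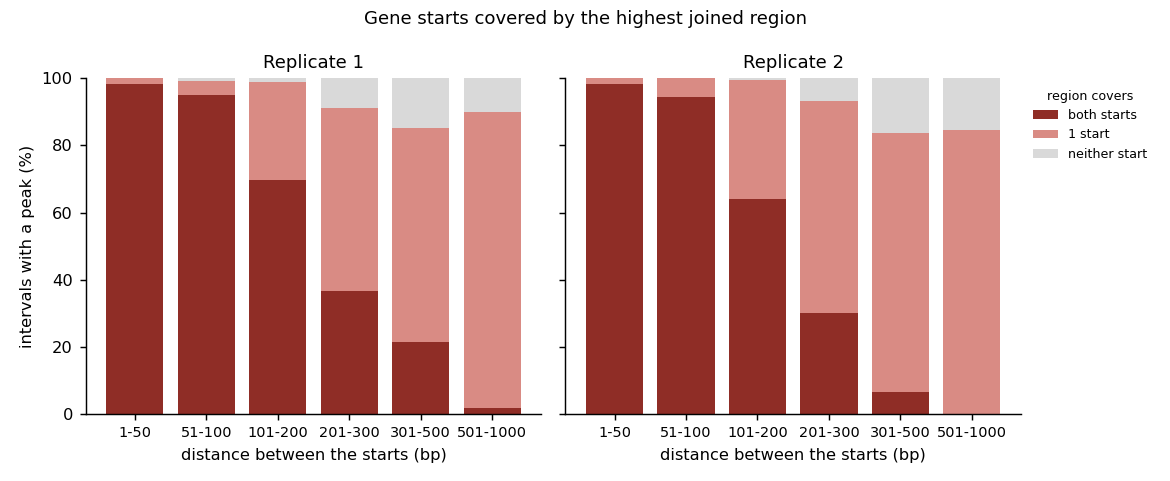
Share of open bidirectional intervals (vertical, in percent) whose highest joined region covers both starts (dark red), 1 start (light red) or neither (grey), by distance between the starts (horizontal, bp), in replicate 1 (left) and replicate 2 (right). Coverage of both starts falls with distance, to 1.67% and 0% beyond 500 bp, where a single start is covered in 88.3 and 84.7%. The region there has a median width of 260 and 240 bp, too narrow to reach both starts.

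The midpoint of the region lay inside the interval at 68.7% of open pairs in replicate 1 and 66.7% in replicate 2. Its median distance from the middle of the interval, in either direction, was 34.5 and 40.5 bp over all open pairs, 26 and 22.5 bp for starts 1 to 50 bp apart, and 285.75 and 276.5 bp for starts 501 to 1000 bp apart. At single genes the midpoint lay a median of -34.5 bp from the start in replicate 1 and -29.5 bp in replicate 2, negative values being upstream. Height varied with distance as well. The median was 6.22 and 5.13 for starts 1 to 50 bp apart, 7.72 and 7.32 for 101 to 200 bp, 8.72 and 8.26 for 201 to 300 bp, and 6.42 and 5.61 for 501 to 1000 bp. It was thus highest at 201 to 300 bp in both replicates. Openness ranged from 86.8% to 96.9% over the 6 distance classes and both replicates, without a steady trend.

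Separate regions were found at 46 intervals in replicate 1 and 70 in replicate 2, with a median of 190 and 140 bp between them. Each start lay within 100 bp of a region of its own at 46 of the 46 intervals in replicate 1 and at 66 of the 70 in replicate 2. Only intervals with separate regions entered this count, so that little besides the 100 bp limit could fail. Of open intervals with starts 501 to 1000 bp apart, 55.0% and 42.4% still had a single region. At Pdcd10 and Serpini1 the region at Pdcd10 had 16.9 and 19.6 and that at Serpini1 6.32 and 5.68 in replicates 1 and 2. At Cep57, a centrosomal gene, and Fam76b, the values were 10.8 and 9.40 at Cep57 and 16.1 and 17.7 at Fam76b. At Qpctl and Snrpd2, a core spliceosomal gene, they were 12.2 and 14.0 at Qpctl and 7.99 and 6.59 at Snrpd2. At Rnf5 and Agpat1 the order turned, with 15.9 at Rnf5 and 13.7 at Agpat1 in replicate 1, and 15.3 and 20.2 in replicate 2. In the other 3 of these pairs the same end was higher in both animals.

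The deposited false discovery rate (FDR) of the cut rate gave the shape of the open chromatin base by base. Values from gene starts are for genes chosen by their peak calls, and values from the middle of intervals are for all pairs. Without that choice, the highest share in replicates 1 and 2 was 93.0% and 90.3% at bidirectional genes and 46.1% and 40.1% at single genes. The share of bidirectional genes with an FDR of at most 0.001 at 300 bp upstream of the start, among pairs open in both replicates, was 96.1% in replicate 1 and 87.0% in replicate 2, against 80.7% and 48.2% of single genes open in both. The same distance downstream gave 92.5% and 75.0% for bidirectional genes, against 86.6% and 70.4%. The span over which the share stayed above 50% of its maximum ran from -840 to 680 bp in replicate 1 and from -610 to 450 bp in replicate 2 at bidirectional genes, and from -500 to 750 bp and from -310 to 510 bp at single genes. By this span, bidirectional genes were open further upstream, where the partner lies, and less far downstream. At 300 bp downstream, however, the bidirectional share was the higher one in both replicates. Where the starts lay 501 to 1000 bp apart, the share at the middle of the interval was 77.9% and 55.9%, below the maximum of 83.8% and 74.6% to its side. In both replicates the middle of these wide intervals had the lowest share of the distance classes.

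**Figure D5:**
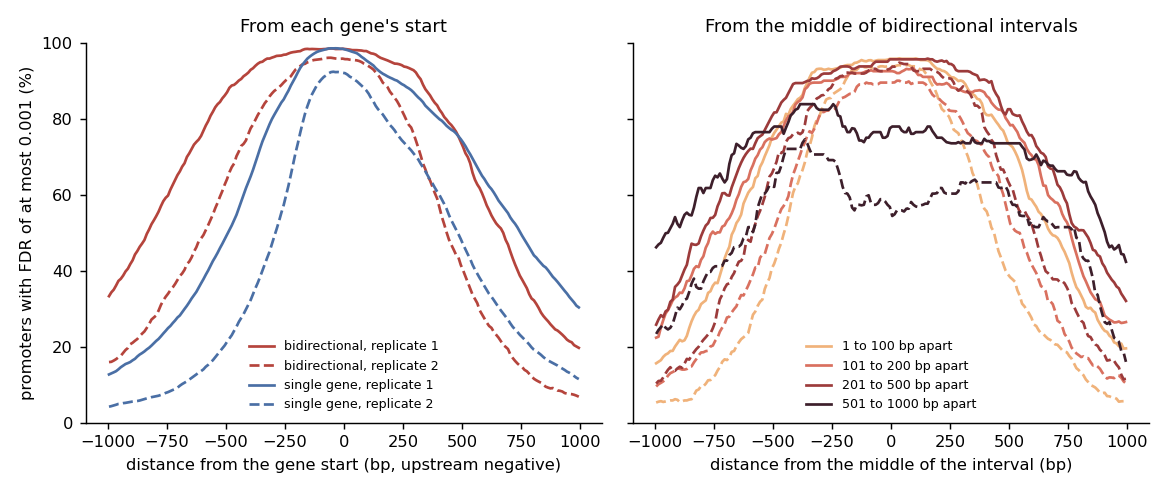
Share of promoters with a cut-rate FDR of at most 0.001 (vertical, in percent) by distance in bp, in 10 bp bins, in replicate 1 (solid) and replicate 2 (dashed). Left, from each gene's start, for bidirectional (red) and single genes (blue) open in both replicates, with the bidirectional curve wider upstream (96.1 and 87.0% at -300 bp, against 80.7 and 48.2%); right, from the middle of all bidirectional intervals by distance between the starts, with a dip at the middle of the widest class (77.9 and 55.9%).

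Footprints are short stretches inside open chromatin that are protected from DNase I. Each 300 bp window at an open bidirectional interval was touched by 6.02 footprints on average in replicate 1 and 5.45 in replicate 2, against 4.87 and 4.63 at open single genes, a ratio of 1.24 and 1.18. Counted over the interval itself, the density was 1.94 and 1.76 footprints per 100 bp at bidirectional intervals and 1.99 and 1.93 at single genes, a ratio of 0.974 and 0.913 (0.944 ± 0.0432, SD, n = 2). The direction of this comparison therefore depended on the window. Among promoters of like height, split into 4 bins, the 300 bp counts differed little. In the highest bin, bidirectional windows had 6.48 and 6.20 footprints and single-gene windows 6.26 and 6.04, and over the 4 bins and both replicates the ratio lay between 0.951 and 1.08.

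Of the 12 consensus sequences searched for on both strands of the 300 bp windows, several sites of widely expressed factors were more common at bidirectional intervals than at single genes that were also open in both replicates. CCGGAAG, an ETS family site, was in 30.5% of 660 open bidirectional windows and 19.8% of 7061 open single-gene windows, and in 28.3% of all 734 bidirectional and 9.65% of all 18126 single-gene windows. Within the bin richest in CpG the open shares were 32.8% and 22.3%. AAGATGGCG, the YY1 site, was in 6.06% of open bidirectional and 3.46% of open single-gene windows. TCTCGCGAG, the ZBTB33 element, was in 3.03% and 1.67%, GCGCATGCG, the NRF1 site, in 5.30% and 4.23%, and CCAAT, the NF-Y box, in 46.5% and 40.1% of open bidirectional and open single-gene windows.

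Other motifs did not follow that order. GGGCGG, the GC box of SP factors, was in 70.0% of open bidirectional and 71.3% of open single-gene windows, and TATAAA, the TATA box, in 4.39% and 5.18%. Over all windows, open or not, the TATA box was in 4.50% of bidirectional and 12.7% of single-gene windows. TGTGGT, the RUNX site, was in 9.09% of open bidirectional and 11.9% of open single-gene windows, or in 8.44% and 8.92% within the bin richest in CpG, and CTTTGAA, a TCF family site, in 1.82% and 2.80%. RUNX and TCF proteins are central to T-cell development. CACGTG (the E-box), TGACGTCA (the CRE) and GTTGCCATG (an RFX site) were in 10.9%, 4.70% and 1.06% of open bidirectional windows and in 11.3%, 4.33% and 0.878% of open single-gene windows. A match is a string of letters, and 5-letter to 9-letter strings also occur without a bound factor. A 300 bp window at a pair can hold the starts of both genes, while that of a single gene holds 1 protein-coding start. How far this goes with the motif shares was not tested, and no motif was tested.

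Footprints overlapped some of these matches far more than others. In open bidirectional windows, footprints touched 63 of 63 NRF1 matches in replicate 1 and 60 in replicate 2 (100% and 95.2%), and 100% of the 33 CRE matches in both. In open single-gene windows the shares were close, 97.4% and 96.1% for NRF1 and 95.6% and 93.0% for the CRE. An NRF1 site matching on both strands 1 base apart was counted once per strand, and the 63 matches lay in 35 windows. At bidirectional intervals, footprints touched 74.1% and 68.0% of ETS matches in replicates 1 and 2, against 62.6% and 63.7% in open single-gene windows. For GC boxes the shares were 76.0% and 73.8%, against 67.2% and 62.9%. For the CCAAT box the values were 44.3% and 38.6% at bidirectional intervals and 39.9% and 37.9% at single genes. For the RUNX site they were 16.1% and 11.3%, against 30.7% and 23.2%, so that the few RUNX matches at bidirectional intervals were also touched less often in both replicates. With 62 RUNX matches, these bidirectional shares rest on 10 and 7 touched matches. The TCF site went the other way, and its matches were touched more often at bidirectional intervals in both replicates. Footprints touched 6 and 7 of 13 TCF matches in open bidirectional windows, and 69 and 58 of 203 in open single-gene windows. With 13 matches, the bidirectional counts for TCF are small.

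The 50 pairs without a peak in either replicate were of several kinds. Of these, 8 had a peak within 100 bp of the interval in both replicates, and 30 had none within 1000 bp in either. Footprints lay in the 300 bp window of 10 of them in both replicates. Of the 71 pairs in the 2 bins poorest in CpG, 25 were closed (35.2%), and of the 663 in the 2 richest, 25 were (3.77%). Their median ratio was 0.511, against 0.871 at the 660 intervals open in both, and the 30 without a nearby peak had a median of 0.311.

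Several of the closed pairs with the shortest intervals lay beside a peak. Kctd19 and Lrrc36 had a peak 10 bp outside the interval in replicate 1 and 1 bp outside in replicate 2. Dclre1a, a nuclease of DNA crosslink repair, and Nhlrc2 had one 60 and 120 bp away, and Zfp408 and Arhgap1, a GTPase activator, one 101 and 121 bp away. Among pairs named after their values were seen, Hook3, a motor adaptor, and Rnf170 had a peak 33 bp away in both replicates, and Anxa5, a phospholipid-binding annexin, and 1810062G17Rik one 14 bp away in both. A peak touching the upstream window of any annotated transcript start was also counted. By that count 96.7% and 96.5% of the 734 pairs were open in replicates 1 and 2, against 54.9% and 50.2% of single genes. The counts are unlike, since a pair could be open through the starts of either gene, and a single gene only through its own.

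Other closed pairs lay far from any peak. Col4a4 and Col4a3 had their nearest peak 32229 bp away in replicate 1 and 54891 bp in replicate 2. Il11, a cytokine gene, and Tmem190 had theirs 5379 and 5339 bp away. Patl2, which acts in oocytes, and Terb2, a meiotic telomere gene, had 5449 and 5491 bp. Dgcr2 and Tssk2, a testis-specific kinase, had 5662 and 6622 bp. Best1, a chloride channel of the retinal pigment epithelium, and Rab3il1 had 1027 and 8313 bp.

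The following pairs were named after their values were seen. Aspa, the aspartoacylase of oligodendrocytes, shared 1 interval with both Spata22, a meiosis gene, and Gm49340, and the nearest peaks lay 47556 and 47716 bp away in replicates 1 and 2. Bhmt2 and Dmgdh, of liver choline metabolism, had theirs 44628 bp away in both. Nr2e1, a receptor of neural stem cells, and Ostm1 had 17839 and 21217 bp, and Kirrel2 and Nphs1, which encodes nephrin of the kidney filter, had 1192 and 14246 bp. Trim28, a corepressor used widely, shares an interval with Slc27a5 whose nearest peak lay 5652 and 10047 bp away. Peg3, an imprinted gene expressed from the paternal copy, and Usp29 had theirs 731 and 711 bp away.

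The closed interval of Rnf151 and Rps2, a ribosomal protein gene that every cell uses, had its nearest peak 1785 bp away in both replicates. The most upstream annotated start of each gene was the one used, and whether it is the start used in thymus was not tested.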

How the data were processed

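DNase-seq libraries of 2 thymuses were used. Each sample's larger peak file was the main set, and the smaller one an alternative. Column 7 of the deposited peak files holds the authors' signal, the height of each peak, with no scaling stated. FDR values of the cut rate, handled as q-values, were deposited by the authors where under 0.05, and the deposited footprints carry a constant 0.01, read here as their FDR threshold. Per the README deposited with each sample, files are on mm10 and were made per library, not pooled. Callers, versions and any correction for the sequence preference of DNase I are not given in the sources used here, and the placing of CAST/EiJ reads was not measured.

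Gene starts came from GENCODE M21 and sequence from GRCm38.p6 (chromosome lengths compared with the files). Overlap was counted from 1 bp. Python 3.11.15, pandas 2.3.3, numpy 2.4.6 and pysam 0.24.0 were used, blastn 2.17.0+ for copies, and code was tested on simulated data. Values were computed in each replicate and given as such or as mean ± SD (n = 2), without tests, since there is 1 group.

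The pairs, lists and motifs were chosen with earlier results of these data known. Named pairs were the 10 with the highest mean percentile of height over both replicates, textbook pairs, up to 3 open and 2 closed pairs per list, up to 10 closed pairs of named genes with the shortest intervals, and 5 with separate regions. Others were named after their values were seen. The values of some pairs that this rule names are not reported here.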

Additional observations from a re-analysis of the deposited data

How the results depend on the processing

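The share of bidirectional intervals with a peak was 91.6%, and moved by more than the spread between replicates with the smaller peak file (90.6%), equal numbers of peaks (90.9%), peaks of at least the median height (89.6%), 300 bp windows (90.6%) and any annotated transcript start (96.6%, an alternative chosen after seeing the data). Leaving out a replicate gave 91.1 to 92.0%. The share of single-gene promoters, 42.9%, became 40.2% with the smaller peak file, 37.6% with peaks of at least the median height, 46.2% with 300 bp windows, 45.5% with named genes only and 52.6% with any transcript start, and 41.0 to 44.7% without a replicate. The height ratio of 1.71 became 1.60 with the smaller peak file, 1.60 with equal numbers of peaks, 1.50 with peaks of at least the median height, 1.78 with 300 bp windows, 1.73 with starts at most 500 bp apart, and 3.66, 3.42 and 1.35 in the 2 poorest CpG bins and the richest one. It was 1.70 to 1.72 without a replicate. In each of these settings bidirectional intervals were open more often than single genes, and higher wherever height was recomputed. A single region was found at 91.4% of open intervals, 95.5% with starts at most 500 bp apart, and 89.5 to 93.2% without a replicate. The footprint density ratio of 0.944 fell to 0.890 with peaks of at least the median height and turned round with 300 bp windows (1.29), starts at most 500 bp apart (1.11) and 50 bp of overlap within 50 bp (1.06), so that it has no settled direction. The cause was not tested. Without a replicate it was 0.913 to 0.974. No paired analysis was possible because there is 1 group. Read depth is not given, and replicate 2, with fewer peaks, limits what a missing peak can show.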
